A study of Mus musculus with 8 samples.

Results

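The 4 wildtype arrays of the 8 arrays in the series were described here as a baseline transcriptome, across genes and without a comparison of genotypes. Each array held RNA of EGFP-positive cells sorted from the vertebral column of mouse embryos at E12.5, of strain C57BL/6J;129. In this group EGFP followed the intact reading frame of Bapx1, joined to it in the 3′ untranslated region by an internal ribosome entry site, so that cells with an active Bapx1 locus could be collected by flow cytometry. The study writes the line as heterozygous for this reporter allele and describes 4 biological replicates, and the sources used here do not give whether each came from 1 embryo or from a pool. The cells were defined by the reporter alone, in a dissected axis that also holds neural tube, vessels and muscle. Members were chosen by a detection rule: a probe was kept where its signal passed a detection p under 0.05 on all 4 arrays, and a gene took the level of its brightest such probe. By this rule 9742 of 19038 genes with a named probe were described. Levels are log2 intensities after quantile normalization of the kept probes over the 4 arrays, given as mean ± SD with n = 4.

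Bapx1, now named Nkx3-2, is a homeobox gene active in the sclerotome, the ventral part of the somite from which vertebrae and ribs form. Sclerotome cells move around the notochord and neural tube, gather into mesenchymal condensations and become chondrocytes. Sox9 starts this cartilage program and acts with Sox5 and Sox6 on the genes of the cartilage matrix, and hedgehog signals from the notochord and BMP signals from neighbouring tissue bear on the same steps. At this stage of mouse development the vertebral bodies are condensing and early cartilage, before bone is laid down.

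Of 45281 probes, 16986 were detected on all 4 arrays, which was 37.5% of those tested, and the genes made up 51.2% of those with a named probe. A further 2413 genes were detected on 1 to 3 arrays and 6883 on 0 arrays. Arrays had 41.0 to 45.6% of probes above background, and replicate 2 had the lowest share. Pairs of arrays among replicates 1, 3 and 4 correlated at up to 0.987 over the kept probes, whereas replicate 2 correlated at 0.963 to 0.968 with each of the others. Replicate 2 held the highest value in 37.7% and the lowest value in 31.1% of genes. With 4 arrays the spread is known only roughly, and all errors cover these arrays only.

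Gene levels ranged from 3.65 to 15.22 (log2 intensity), with a median of 8.17. The SD over the arrays had a median of 0.217, with 0.136 in the brightest 10% of genes and 0.353 in the dimmest 10%. The 10 genes of highest level held 3.3 to 3.6% of the summed intensity of detected genes, the first 100 held 18.3 to 19.8% and the first 1000 held 57.0 to 59.3%. Ranks are over genes with a name: 2418 detected probes had no listed gene, among them 40 of the 100 brightest probes, and have no rank. A rank here is an order of signal: probes differ in how strongly they bind their target, so a difference between 2 genes is not a ratio of transcript numbers. In bulk RNA, fewer cells of a type and less RNA per cell cannot be told apart.

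**Figure D1:**
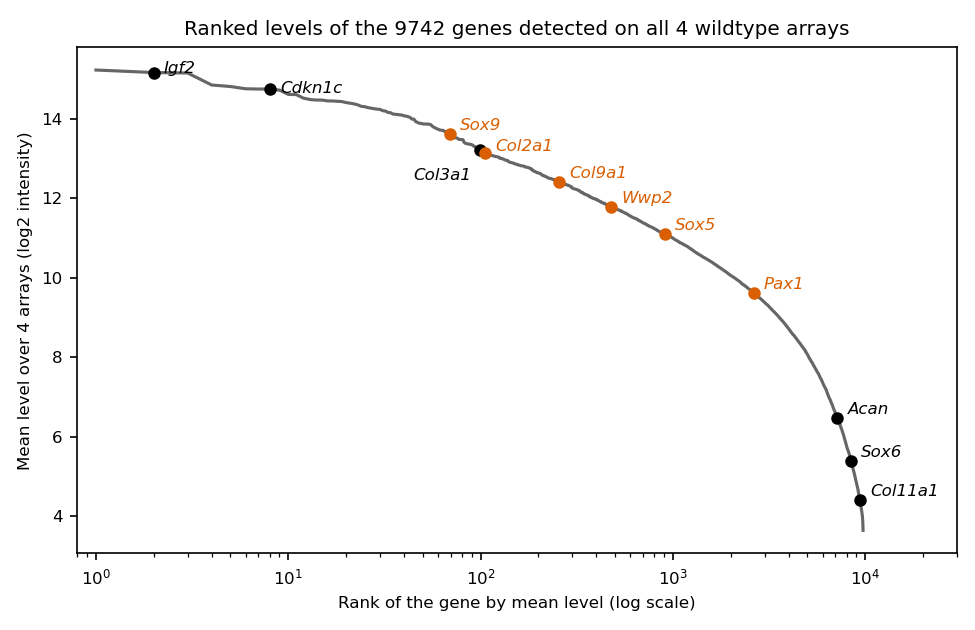
Mean level of each of the 9742 detected genes (log2 intensity, 4 wildtype arrays) against its rank on a log axis. The 6 label genes (orange) lie between rank 69 (Sox9) and rank 2634 (Pax1), whereas Acan, Sox6 and Col11a1 (black) lie on the steep lower part of the curve.

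At the top of the ranking stood genes of protein synthesis, the mitochondrial genome, some H2A histones, the cytoskeleton and a growth factor axis of embryonic tissue. The first place went to CYTB, the cytochrome b gene of the mitochondrial genome, at 15.22 ± 0.05. Igf2, an imprinted growth factor of the fetus, read 15.10, 15.10, 15.30 and 15.13 in replicates 1 to 4, a mean of 15.16 ± 0.09, and was among the first 3 genes on every array. Eef1a1, a translation elongation factor, followed with 15.15 ± 0.08. Igf2 was the brightest gene of a secreted protein among the first 30. The others of that group were the heparin-binding factor Mdk, at 14.52 ± 0.06, and Mif, a cytokine that many cells make, at 14.31 ± 0.23.

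Among the 30 genes of highest level, 8 encoded ribosomal proteins (Rpl41, Rps29, Rpl38, Rps24, Rps12, Rpl23, Rplp1 and Rpl37, from 14.85 to 14.35) and 3 lay in the mitochondrial genome (CYTB, ND4 and ND1). Another 4 were H2A histone genes, H2ac24, H2ac10, H2ac20 and H2ac7, at 14.81 to 14.26. The copies of this histone family are nearly identical, so a signal cannot be assigned to 1 copy. H2ac24 read 14.57, 15.30, 14.82 and 14.54 in replicates 1 to 4, highest in replicate 2. Histone cluster genes as a group, formed after the ranking was seen, were not all bright. Of 55 with a named probe 43 were detected (against 51.2% of all genes). Their median level was 8.48, against 8.17 for all detected genes. Tubulin was represented by Tubb5 (14.61 ± 0.10) and Tuba1b (14.28 ± 0.09), and RNA and chromatin proteins by Hnrnpab, Npm1 and Hmgn2 (14.40 to 14.23). Nrep, which encodes a small intracellular protein of regenerating and embryonic tissue, read 14.61 ± 0.15. The remaining places went to Cdkn1c, the chaperone Ppia, the ATP synthase subunit Atp5g3 and the transcribed pseudogenes Gm6548 and Ubb-ps, whose probes were not tested for signal from the parent gene.

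Of the 57 ribosomal protein genes with a named probe, 52 were detected on all 4 arrays, and their median percentile among detected genes was 99.0 (100 is the highest level, and the median of all detected genes is by construction in the middle of this scale). They took 26 of the first 100 places. Genes of translation followed at a median percentile of 97.3 (19 of 20 detected), led by Eef1a1 and by Npm1, a nucleolar chaperone, at 14.24 ± 0.06. Many transcripts of the translation machinery are known to start with a C and a run of pyrimidines, and this start could be looked for in the RefSeq promoters of GRCm38.p6 (250 bases before to 50 after a start). A C followed by 6 or more C or T, between 5 bases before and 12 after a start, was present in 17 of 43 ribosomal protein genes with a promoter sequence (39.5%). It was present in 16.8% of the 200 genes of highest level (27 of 161), in 3 of 12 genes of the translation list (25.0%), in 4 of 14 of the cartilage matrix list (28.6%), in 8.5% of all detected genes and in 7.6% of all 27025 genes of the promoter table. This motif was chosen after the ranking was seen. The 5 brightest genes of these lists with the run are printed as examples of a start that most genes of these sets lacked. Promoters of a single chromosome were passed over in this choice. The windows run 5′ to 3′, from 10 bases before to 12 bases from the start on. The run is in capitals as far as the window reaches.
Eef1a1 (chr9:78481713-78481734, minus strand): ctccgCCCTCTTCCCgagggtg
Rpl38 (chr11:114668570-114668591, plus strand): aagcctcgttCTTTCCCCgttc
Rps24 (chr14:24490668-24490689, plus strand): gctggggtCCTTCCTTgcgcgt
Rpl27a (chr7:109519185-109519206, plus strand): cgtgagCTCCTCCCTTTTCCCT
Rps26 (chr10:128626495-128626516, minus strand): gcaagccgccggatCCTCTTTC
In Rpl38 the run began at the annotated start itself, and in Eef1a1 it began 5 bases before it.

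TATAAA on the sense strand, 50 to 11 bases before a start, was present in 8 of 161 genes (5.0%) among the 200 of highest level, in 1.6% of detected genes and in 2.9% of all genes of the promoter table. CCAAT in either direction was present in 49.1, 43.6 and 41.1% of the same 3 sets. TAAGTG or TGAGTG in either direction, short forms of the site known for Nkx3 proteins, was present in 23.6, 21.6 and 26.8%, in 39.5% of the ribosomal protein genes and in 14.3% of the cartilage matrix genes. Histone cluster genes, a group formed after the ranking was seen, held TATAAA in 8 of 39 genes (20.5%) and CCAAT in 32 of 39 (82.1%). The 5 genes of highest level with TATAAA, with promoters of a single chromosome passed over, are printed with that motif in capitals.
H2ac20 (chr3:96220909-96220932, minus strand): taggagcgccTATAAAggccttag
Ppia (chr11:6415828-6415851, plus strand): ccgaaccgggTATAAAggaagccg
H2ac22 (chr13:21787268-21787291, minus strand): tggagaatccTATAAAggccaagc
Zfp36l1 (chr12:80113029-80113052, minus strand): caccaaatctTATAAAttgggctt
H3f3b (chr11:116024518-116024541, minus strand): gcagcgtctcTATAAAtatggagg
A match is a description of these letters only, and genes outside the promoter table, 39 of the 200, were not searched.

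The label of sorted sclerotome and cartilage precursors was set against 6 genes, which were chosen with earlier results of these data known, so that their levels are a description and no independent check. All 6 were detected on all 4 arrays, against 51.2% of all genes, and their median percentile was 96.3. Sox9, the transcription factor that starts the cartilage program, read 13.57, 13.57, 13.56 and 13.78 in replicates 1 to 4, a mean of 13.62 ± 0.10 at rank 69. It lay between rank 60 and rank 70 on the separate arrays. Col2a1, the main collagen of cartilage, read 13.09, 13.02, 13.16 and 13.25, a mean of 13.13 ± 0.10. Both genes thus stood among the first 124 genes on every array, with replicates close together. Col9a1, a collagen that sits on the surface of cartilage fibrils, averaged 12.41 ± 0.11, and Wwp2, a ubiquitin ligase whose gene is known as a Sox9 target, averaged 11.79 ± 0.07. Sox5, a partner of Sox9 on cartilage genes, read 10.79, 10.82, 11.43 and 11.35, a mean of 11.10 ± 0.34. Pax1, a paired-box factor of the ventral sclerotome, read 9.10, 9.63, 9.86 and 9.91, a mean of 9.62 ± 0.37 at rank 2634. The values of neighbours in this order did not overlap on the 4 arrays.

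**Figure D2:**
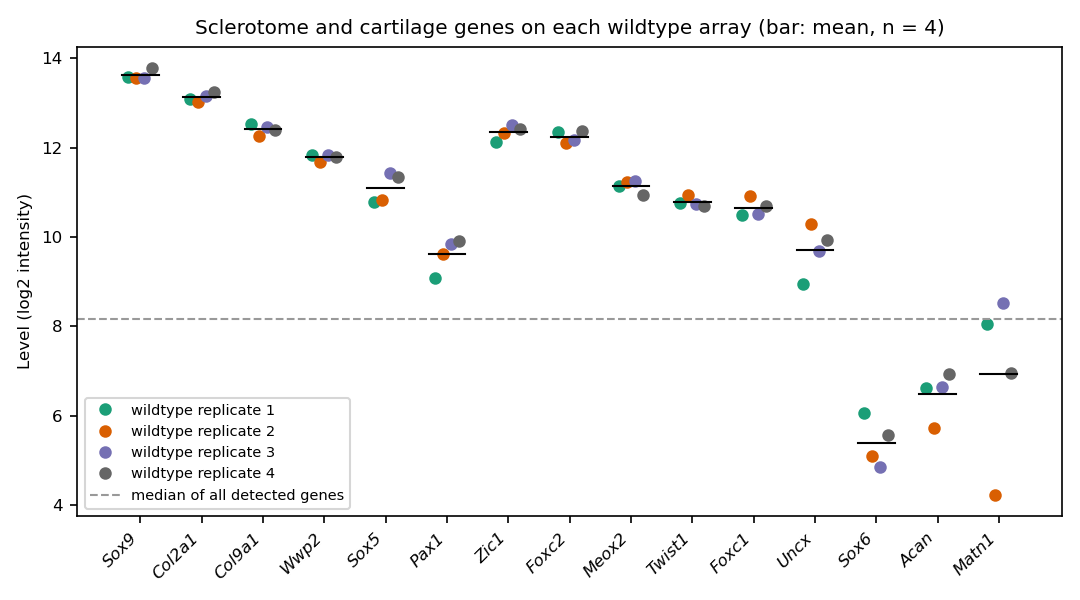
Level (log2 intensity) of 15 genes of sclerotome and cartilage on each of the 4 wildtype arrays (coloured points), with the mean as a bar and the median of all detected genes as a dashed line. The 6 label genes at the left lie above that line on all arrays, whereas Sox6 and Acan lie below it on all arrays and Matn1 spreads from 4.24 in replicate 2 to 8.52 in replicate 3.

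The gene that drove the sort could not be seen on these arrays. Nkx3-2 has 2 probes, and neither was detected on any wildtype array. The first read 0.7, 1.4, 2.5 and 8.1 in background-subtracted intensity in replicates 1 to 4, with detection p from 0.0716 to 0.397. The second read 4.0, -5.9, -9.9 and -4.6. For comparison within the arrays, the brighter Pax1 probe read 658.7 to 936.9 in the same unit. No source read for this work places these probes on the reporter allele, and whether their position bears on the readings was not tested.

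Transcription factors of sclerotome and paraxial mesenchyme were detected on all arrays in 60.9% of cases, against 51.2% of all genes and 58.9% of the catalogue of transcription factors. Of 23 with a named probe, 14 were detected on all 4 arrays, 6 on 1 to 3 and 3 on 0, and the median percentile of those detected was 76.1, with 3 in the brightest 10%. Zic1, a zinc finger factor of dorsal neural tube and dorsal sclerotome, led at 12.35 ± 0.17. It was followed by the forkhead factor Foxc2 (12.25 ± 0.14) and the somite homeodomain factor Meox2 (11.14 ± 0.14). Twist1, a basic helix-loop-helix factor of mesenchyme, read 10.78 ± 0.11. Uncx, which marks the posterior part of each sclerotome, read 8.96, 10.30, 9.68 and 9.93, lowest in replicate 1 and highest in replicate 2. Pax9, the partner of Pax1, was detected on 3 of 4 arrays. Tcf15, a factor of the epithelial somite, was low at 6.63 ± 0.64, as were Eya1 (6.86 ± 0.21) and Prrx1 (7.05 ± 0.28), and Msx2 and Barx2 were detected on 0 arrays.

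Within arrays, paralogues of this group differed by stable amounts of signal. Foxc2 exceeded Foxc1 by 1.60 ± 0.29 (log2, 4 of 4 arrays), Meox2 exceeded Meox1 by 1.62 ± 0.11 (4 of 4) and Twist1 exceeded Twist2 by 0.84 ± 0.28 (4 of 4). Zic1 and Foxd1, which encodes a forkhead factor of stromal mesenchyme, differed by 0.01 ± 0.30 with Zic1 higher on 2 of 4 arrays, so their order is not settled. Each of these differences joins 2 probes, whose difference in binding was not measured.

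Over the catalogue of transcription factors, the order was led by Ybx1, a cold-shock protein that also binds RNA, at 14.07 ± 0.08, and by Sox9. The place of Ybx1 rests on 1 probe, since its next detected probe was 9.11 dimmer. With the mean of their detected probes Ybx1 stood at the 80.19 percentile and Sox9 at 97.77. Tcf4, a partner of many helix-loop-helix factors, followed at 13.07 ± 0.34, Ebf3 at 12.91 ± 0.51, the LIM-only protein Lmo4 at 12.83 ± 0.16 and Sox11, a factor of undifferentiated embryonic tissue, at 12.68 ± 0.12. Ebf3 read 13.07, 12.17, 13.33 and 13.08, so that replicate 2 alone lay below 13. Meis1 (12.49 ± 0.19), Foxd1 (12.33 ± 0.18) and Meis2 (11.48 ± 0.21) stood high, as did the Hox gene Hoxc6 (11.70 ± 0.34). Cbfb, the common partner of the Runx factors, read 12.21 ± 0.13, while Runx3 was detected on 0 arrays and Runx2 had no named probe. Stress and secretory factors among the first 30 were Atf4 (11.78 ± 0.15), Nfe2l1 (11.31 ± 0.09) and Xbp1 (11.25 ± 0.09). Further places were held by Tead2 (11.37 ± 0.19) and Wwtr1 (11.08 ± 0.07), partners in the Hippo pathway, by Nfatc4, Ets2, E2f6, Irf3, Sox4 and Runx1t1 (11.49 to 10.93), and by Peg3, an imprinted zinc finger gene (10.99 ± 0.41).

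Regulators of cartilage were detected in 17 of 25 cases (68.0%, against 51.2% of all genes), with a median percentile of 57.8. Besides the label genes, Ccn2, a matricellular growth factor (11.52 ± 0.35), Trps1, a zinc finger factor of growth plates (10.53 ± 0.31), Zfp219, a partner of Sox9 (10.15 ± 0.18), and Snai2, a repressor of epithelial genes (10.05 ± 0.40), stood in the upper part. Sox6, the usual companion of Sox5, read only 6.06, 5.10, 4.85 and 5.57, and Sox5 exceeded it by 5.70 ± 0.76 on 4 of 4 arrays. Of 5 Sox6 probes 1 was detected on all arrays, and its intensity was 30.9 to 85.7. Fgfr3, a receptor of proliferating chondrocytes, was detected on 1 of 4 arrays.

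The cartilage matrix list split into a few bright and many dim genes. Of 25 genes 17 were detected on all 4 arrays (68.0%, against 51.2% of all genes), 5 on 1 to 3 and 3 on 0. The median percentile was 36.8, with 2 genes in the brightest 10%. Below Col2a1 and Col9a1 came the proteoglycan Vcan (10.99 ± 0.28), the matrilin Matn4 (10.45 ± 0.53) and Col9a2 (9.78 ± 0.31). With the mean of their detected probes Vcan stood at the 47.37 percentile and Matn4 at 58.54. Acan, the aggregating proteoglycan of mature cartilage, read 6.62, 5.73, 6.63 and 6.93, a mean of 6.48 ± 0.52 at rank 7155. Chad (6.87 ± 0.48), Col9a3 (5.41 ± 0.64) and Col11a1 (4.42 ± 0.35) were also in the lower part, Comp and Col11a2 were detected on 2 of 4 arrays, and Matn3 and Ucma on 0. Several members moved with replicate 2. Matn1 read 8.04, 4.24, 8.52 and 6.97, and Hapln1, which links aggrecan to hyaluronan, read 8.40, 5.76, 8.86 and 8.66. On average over the list, replicate 2 deviated from the mean of the 4 arrays by -0.785 and the others by 0.237 to 0.297.

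Of the genes of hypertrophic cartilage and bone, 2 that fibrous tissue shares stood above the median gene, Col1a1 (9.59 ± 0.61) and Col1a2 (9.51 ± 1.15). Of 15 genes 7 were detected on all 4 arrays (46.7%, near the 51.2% of all genes), with a median percentile of 19.5. None was in the brightest 10%, which for 7 detected genes says little. Col10a1, the collagen of hypertrophic chondrocytes, gave an intensity of -1.5 to 8.6 and was detected on 0 arrays, as were the signal Ihh and the bone genes Bglap and Dmp1. Sp7, a factor of osteoblasts, was the highest member not shared with fibrous tissue, at 7.64 ± 0.23.

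The difference between the fibrous and the cartilage matrix lists was not tested, since each gene is read by its own probe. Of 29 genes 25 were detected, with a median percentile of 81.4 and 10 in the brightest 10%. With the mean of a gene's detected probes Col3a1 stood at the 74.81 percentile. Col3a1, the collagen of loose connective tissue, read 13.50, 12.94, 13.32 and 13.05, a mean of 13.20 ± 0.25. It differed from Col2a1 by less than its spread, since Col2a1 minus Col3a1 was -0.07 ± 0.27 and Col2a1 was higher on 2 of 4 arrays. Col5a1 (13.34, 12.28, 13.38 and 13.26), the microfibril protein Mfap2 (12.45 ± 0.23) and the proteoglycan Dcn (12.36 ± 0.32) followed. Col1a1, the main collagen of bone and skin, read 10.33, 8.90, 9.80 and 9.34, and Col2a1 exceeded it by 3.54 ± 0.61 on 4 of 4 arrays. Replicate 2 deviated from the mean of this list by -0.662, and Col6a1 (12.23, 10.71, 12.40 and 12.12) and Ogn (11.78, 9.85, 11.47 and 11.30) were examples.

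Basement membrane genes were detected in 15 of 16 cases at a median percentile of 73.9, led by Agrn (13.04 ± 0.10) and Col18a1 (12.09 ± 0.37). Enzymes and chaperones that fold and process collagen were detected in 23 of 26 cases, at a median percentile of 60.3. Serpinh1, the collagen chaperone of the endoplasmic reticulum, read 13.89, 13.79, 13.81 and 13.97 and stood at rank 52. P4hb, a subunit of prolyl hydroxylase, averaged 13.12 ± 0.13. Lox, which crosslinks collagen and elastin, read 11.74, 8.91, 11.22 and 11.34, so that replicate 2 stood far below the others. Of the enzymes that build and sulfate chondroitin 17 of 24 were detected, at a median percentile of 34.1. Papss1 and Papss2, which make the sulfate donor, were the brightest at 12.07 ± 0.28 and 10.72 ± 0.45, and Papss1 was higher on 4 of 4 arrays by 1.35 ± 0.24. Csgalnact1, an enzyme that starts chondroitin chains, read 7.74, 3.76, 8.36 and 8.32, lowest in replicate 2.

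Of the hedgehog pathway 7 of 13 genes were detected on all 4 arrays (53.8%, against 51.2% of all genes). The ligands Shh, Ihh and Dhh were detected on 0 arrays, as was the co-receptor Gas1, and the co-receptor Boc was detected on 1. Gli2 and Gli3, the transcription factors of the pathway, read 11.32 ± 0.09 and 11.27 ± 0.41, and Gli2 was higher on 1 of 4 arrays, with a difference of 0.05 ± 0.32. Gli3 read 11.52, 10.66, 11.51 and 11.40, lowest in replicate 2. Ptch1, a receptor and also a target of the pathway, read 10.25, 10.51, 10.39 and 10.11. Smo averaged 8.79 ± 0.20, while Gli1, another target, gave an intensity of -0.7 to 2.7 and was detected on 0 arrays.

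In BMP and TGF-beta signalling, receptors and transducers were the brightest class, with 14 of 15 detected and a median percentile of 83.3. Tgfbr1 (12.23 ± 0.16), Smad3 (12.13 ± 0.04), Bmpr1a (11.67 ± 0.21) and Bmpr2 (11.67 ± 0.17) led it. Bmpr1a exceeded Bmpr1b, the receptor of condensing cartilage, by 2.02 ± 0.16 on 4 of 4 arrays. Of the ligands 9 of 14 were detected (64.3%, against 51.2% of all genes), at a median percentile of 50.4. Bmp4 read 11.56, 10.86, 11.41 and 11.48 and exceeded Bmp7 by 3.81 ± 0.35 on 4 of 4 arrays, and Bmp2 and Gdf6 were detected on 0. Of the antagonists and targets 13 of 18 were detected at a median percentile of 71.2. Tgfbi led them at 12.21 ± 0.39, and Twsg1 read 12.09, 11.42, 12.08 and 12.09, lowest in replicate 2. Nog, which blocks BMP in cartilage, stood near the floor at 4.14 ± 0.22.

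By construction 10% of all detected genes lie in the brightest 10%. Of the other pathways, Wnt had 4 of 33 detected genes there, FGF and retinoic acid 1 of 9 each and Notch 0 of 12. These counts are too small to tell the pathways apart. In the FGF pathway 9 of 19 genes were detected (47.4%, against 51.2% of all genes), at a median percentile of 45. Fgfr2, a receptor of condensing mesenchyme, stood out at 12.54, 12.69, 12.94 and 12.96. In the Wnt pathway 33 of 44 were detected (75.0%, median percentile 47.3). The transducer Ctnnb1 read 13.71 ± 0.08, the secreted inhibitor Sfrp2 12.36 ± 0.32 and the ligand Wnt5a 11.53 ± 0.21. In the Notch pathway 12 of 21 were detected (57.1%, median percentile 47.6), the highest being Notch3 at 9.30 ± 0.29. Retinoic acid genes were detected in 9 of 16 cases (56.2%, median percentile 56.5), led by the binding protein Crabp1 at 11.67, 10.60, 12.25 and 11.88.

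The IGF pathway had 14 of 16 genes detected and a median percentile of 81.5. Igf2 exceeded Igf1, its postnatal counterpart, by 6.28 ± 0.68 on 4 of 4 arrays. The binding proteins Igfbp5 (14.27, 12.54, 14.35 and 14.28) and Igfbp3 (10.74, 7.82, 10.79 and 9.96) were lowest in replicate 2, as was Igfbp4 (12.42, 11.98, 12.48 and 12.59). Imprinted genes as a list were detected in 25 of 28 cases, at a median percentile of 67.7, with 8 in the brightest 10%. Cdkn1c, an inhibitor of cyclin-dependent kinases and an imprinted gene, read 14.76, 14.25, 14.92 and 15.05, at rank 8. Dlk1, a membrane protein of the Notch ligand type, read 14.45, 12.99, 14.54 and 14.46. Mest (13.87 ± 0.25), Grb10, an adaptor that restrains growth (13.48 ± 0.12), and Ndn, a growth suppressor of neurons and other cells (12.81 ± 0.16), also stood high.

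Lists of secreted and surface proteins outside these pathways were detected on all arrays in 67.6 to 89.3% of cases, against 51.2% of all genes. Growth factors, chemokines and their receptors were detected in 25 of 37 cases (median percentile 68.4), led by Mdk, by the chemokine Cxcl12 (12.95 ± 0.08), by the receptor Pdgfra of mesenchyme (12.82 ± 0.32) and by Ptn, a relative of Mdk (12.35 ± 0.50). Proteases and inhibitors were detected in 25 of 28 cases (60.4), with Ctsb (12.61 ± 0.29), Mmp2 (12.07 ± 0.18) and Mmp14 (11.70 ± 0.14) at the top. Integrins and adhesion genes were detected in 25 of 33 cases (37.6), led by the glypican Gpc3 (13.71 ± 0.22). Axon guidance genes were detected in 25 of 33 cases (72.1), with Efna5 at 12.11 ± 0.14 and Epha7 at 11.78 ± 0.09. Epha3 read 11.37, 8.68, 11.48 and 11.28, lowest in replicate 2. Of the genes for actin, tubulin and their partners 26 of 26 were detected, at a median percentile of 95.9.

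Cell division genes were in the upper part of the ranking. Replication genes were detected in 27 of 29 cases at a median percentile of 77.1, led by the helicase subunit Mcm4 (12.86 ± 0.12) and by Uhrf1 (12.39 ± 0.24), which maintains DNA methylation. Mitosis genes were detected in 24 of 31 cases at 77.7, led by the centromere histone Cenpa, at 12.55, 13.13, 12.64 and 12.76. Beside these stood the cell cycle inhibitor Cdkn1c at 14.74 ± 0.35, while Cdkn1a read 5.57 ± 0.25 and Cdkn1b was detected on 0 arrays. Cyclins D1, D2 and D3 (Ccnd1, Ccnd2 and Ccnd3) read 11.39, 11.87 and 11.34 on average. Replicate 2 had the highest mean of both lists, 0.323 above the mean of the arrays for replication and 0.443 for mitosis.

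Housekeeping lists were bright. The median percentile was 92.4 for the respiratory chain (29 of 32 detected), 93.9 for cytosolic chaperones (18 of 20), 85.1 for protein folding and secretion (32 of 34), 83.7 for chromatin and HMG proteins (24 of 28) and 75.9 for glycolysis (16 of 18). For the respiratory chain the arrays differed from their mean by at most 0.088. All 8 mitochondrial genome genes with a probe, a group formed after the ranking was seen, were detected, at a median percentile of 99.6. Genes of the hypoxia response stood at 49.9 (14 of 18), with Vegfa at 11.26 ± 0.13. Embryonic RNA-binding proteins stood at 44.3 (7 of 9), with Igf2bp3, which binds Igf2 transcripts, at 12.03 ± 0.34.

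**Figure D3:**
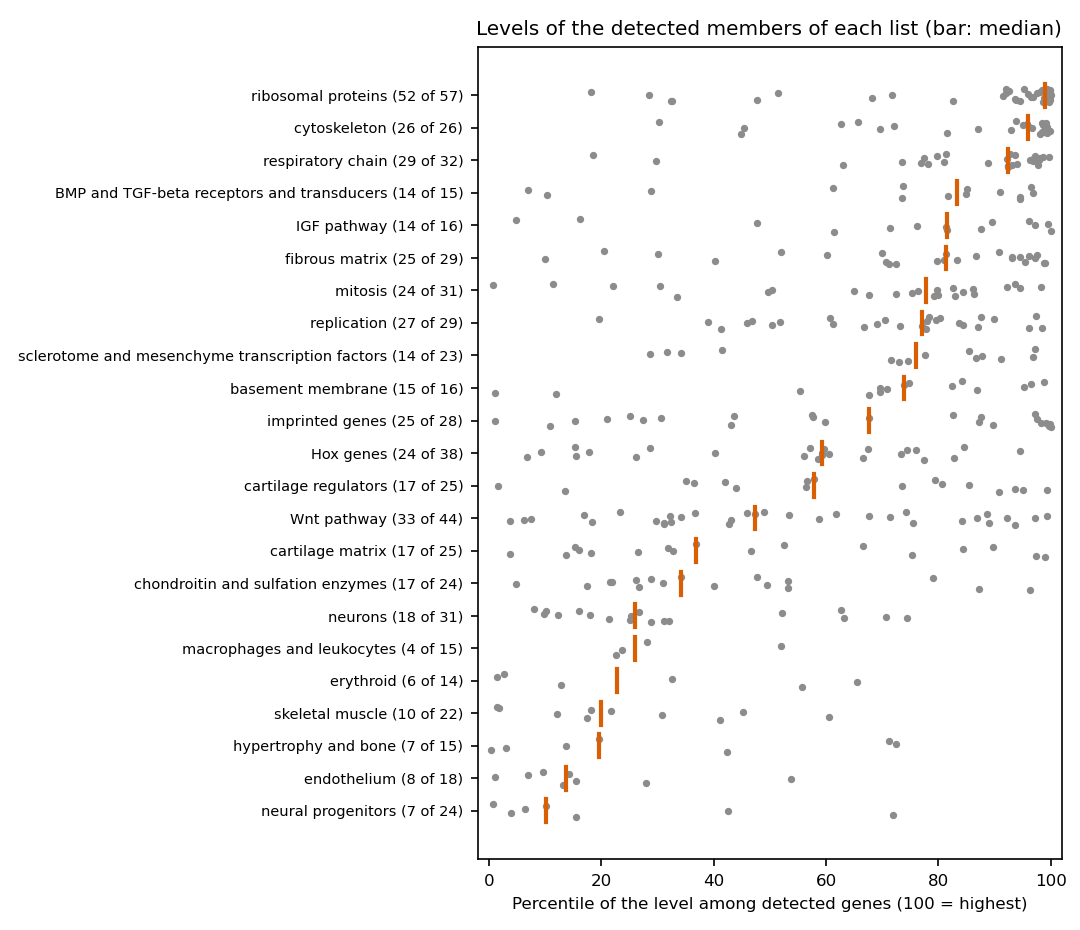
Percentile of each detected gene among all 9742 detected genes (100 is the highest level), by list, with the list median as an orange bar and the number detected of those with a named probe in brackets. Ribosomal proteins lie at the right with a median of 99.0, fibrous matrix at 81.4, cartilage matrix at 36.8 and neural progenitors at 10.1.

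Lists of other cell types were detected in shares both below and above the 51.2% of all genes. Most of these lists had a median percentile below the middle of the ranking. Of 3 notochord markers with a probe (Noto, Shh and Foxa2) 0 were detected on any array, although Foxa1, known from notochord and floor plate, read 9.02 ± 0.12. The longer list of notochord and floor plate had 8 of 12 genes detected (66.7%) at a median percentile of 40.9. Among them were Cd24a (9.15 ± 0.28), Krt8 (5.79 ± 0.16) and Krt18 (4.85 ± 0.18), and Sox9, Sox5 and Sox6, which are shared with the cartilage regulators. Of 4 neural progenitor markers 0 were detected on all arrays, and Sox1, Pax6 and Olig2 were detected on 0. Over the longer progenitor list 7 of 24 genes (29.2%) were detected on all arrays. Nkx6-1, a factor of the ventral neural tube, stood above the others at 9.57 ± 0.32. Of 5 neuron markers 4 were detected, and their summed normalized signal was 164 to 578 per array. Such a sum joins different probes and leaves out markers not detected on all arrays, so it does not measure an amount of cells. Tubb3, a tubulin of neurons, was detected on 0 arrays by its probe. The longer neuron list had 18 of 31 genes detected (58.1%, above the 51.2% of all genes) at a median percentile of 26.0. Its highest were Map1b (9.71 ± 0.56) and Gap43 (9.47 ± 0.30). Of neural crest and Schwann cell genes 4 of 10 (40.0%) were detected. Among them were Sox10 at 7.65 ± 0.20 and the receptor Ngfr at 9.66 ± 0.06, which was brighter than the label gene Pax1.

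Of 5 endothelial markers 1 was detected on all arrays, with a signal of 26 to 53, and Tie1 was detected on 0. The longer list had 8 of 18 genes detected (44.4%, against 51.2% of all genes) at a median percentile of 13.7. Egfl7, a secreted protein of endothelium, was its highest at 8.39 ± 0.33. Of 5 macrophage markers 0 were detected on all arrays, 4 on 1 to 3 and C1qa on 0. Of 15 genes of the macrophage and leukocyte list 4 (26.7%) were detected on all arrays, the highest being Laptm5 (8.26, 6.44, 9.31 and 9.15). Of the erythroid markers the globins Hbb-y, Hba-a1 and Hbb-bh1 were detected on all arrays, and they summed to 694, 504, 1004 and 5339 in replicates 1 to 4. The erythroid list had 6 of 14 genes (42.9%) detected at a median percentile of 22.7, and Gata1, the factor that drives this lineage, was detected on 0 arrays.

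Skeletal muscle genes were detected on all arrays in 45.5% of cases and mural genes in 58.3%, against 51.2% of all genes. Of 5 skeletal muscle markers 3 were detected and their sum was 268 to 1228. The longer list had 10 of 22 genes detected at a median percentile of 19.9, with Myl1, a myosin light chain, highest at 8.82 ± 1.11, and Myf5 and Myf6 were detected on 0 arrays. Acta2, an actin of smooth muscle and of some fibroblasts, was the only 1 of 4 mural markers detected on all arrays, at 10.61 ± 0.35, and 7 of 12 genes of the longer list were detected (40.1). Tendon and annulus genes were detected in 12 of 16 cases (79.9), but the bright ones, such as Sox9, Dcn and Lum, are shared with other lists, and Scx, which defines tendon precursors, read 7.72 ± 0.32. Of 15 epithelial genes 5 were detected (18.1), with the cadherin Cdh3 at 8.73 ± 0.18 and Epcam detected on 0 arrays.

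Meningeal genes were detected in 12 of 20 cases (60.0%, against 51.2% of all genes) at a median percentile of 62.3. The brightest, Zic1, Foxd1 and Foxc1, also belong to mesenchyme. Of 4 meningeal markers 1 was detected on all arrays, the transporter Slc6a13, at 8.48, 5.73, 8.27 and 8.80. Gjb2, a connexin of the meninges, read 10.82, 8.34, 10.40 and 10.08. Genes of the other Bapx1 domains, spleen, stomach and limb, were detected in 4 of 13 cases (30.8%), at a median percentile of 26.7. Foxf2, a mesenchymal forkhead factor, was the brightest at 10.32 ± 0.52, and Tlx1, Nkx2-5, Pdx1, Tbx5, Pitx1 and Hand2 were detected on 0 arrays.

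Hox genes were detected on all arrays in 63.2% of cases, against 51.2% of all genes and 58.9% of the catalogue of transcription factors. The Hox homeodomain factors mark position along the axis, low numbered groups from the neck on and high numbered groups toward the tail. Of 38 with a named probe 24 were detected on all 4 arrays, 6 on 1 to 3 and 8 on 0, and their median percentile was 59.2. Groups 2 to 13 each had at least 1 detected gene and group 1 had 0 of 2. A group held only 2 to 4 probed genes, so these counts cannot set groups apart from the share over all genes. The brightest were Hoxc6 (11.28, 11.94, 11.55 and 12.01), Hoxd10 (9.49, 9.87, 11.26 and 11.27) and Hoxa5 (10.32 ± 0.51). Replicate 1 had the lowest value of Hoxc6 and Hoxd10. It deviated from the mean of the arrays by -0.484 over the list, and replicate 4 by 0.355. Split by group after these values were seen, groups 1 to 5 (10 genes) deviated by -0.181, 0.275, -0.169 and 0.075 in replicates 1 to 4. Groups 6 to 9 (9 genes) deviated by -0.679, -0.089, 0.138 and 0.629, and groups 10 to 13 (5 genes) by -0.737, -0.235, 0.553 and 0.419. The low values of replicate 1 were thus largest in size in the high numbered groups, and what part of the axis each dissection held was not given or tested.

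**Figure D4:**
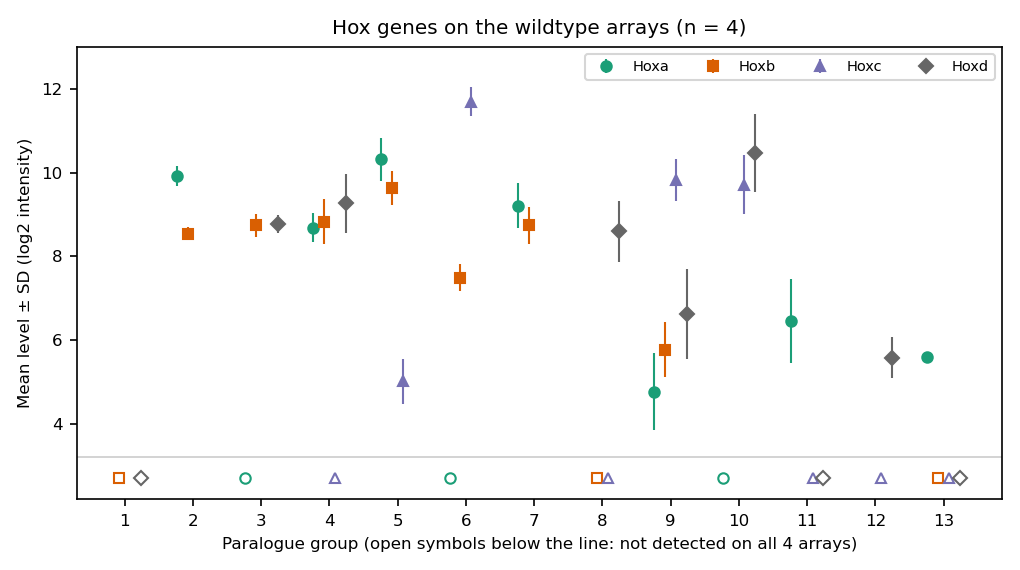
Mean level ± SD (log2 intensity, n = 4 wildtype arrays) of Hox genes by paralogue group and cluster, with genes not detected on all 4 arrays as open symbols below the line. Hoxc6 is the highest at 11.70, Hoxd10 reaches 10.47, and both genes of group 1 are below the line.

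The arrays differed among themselves in several gene groups at the same time. Among the 200 genes of widest spread in the upper 50% of levels, replicate 2 was the array farthest from the median in 157, replicate 4 in 19, replicate 1 in 17 and replicate 3 in 7. Of the 20 widest, replicate 2 was farthest in 12. Rbm45, which encodes an RNA-binding protein, read 9.97, 4.99, 10.02 and 10.20, the widest of all. Scara5, a scavenger receptor of mesenchymal cells, read 9.47, 5.83, 8.79 and 9.15, and Piezo2, Rtl3, Aqp1, Mia, Mt1 and Prss35 were also lowest in replicate 2. In the gene lists, replicate 2 was lowest for cartilage matrix (-0.785), fibrous matrix (-0.662), neurons (-0.718), crest and Schwann cells (-0.636), skeletal muscle (-0.754), macrophages (-1.210) and meninges (-0.456). It was highest for embryonic RNA-binding proteins (0.567) and for genes of the other Bapx1 domains (0.490). It was also highest for mitosis and replication, as given above, and for histone cluster genes (0.249 over 43 genes). The endothelial (-0.313) and erythroid (-0.740) lists were lowest in replicate 1, and neural progenitors lay at 0.002 in replicate 2. Replicate 2 thus stood low for matrix and for the markers of several but not all other cell types. Whether cell composition bears on the matrix values was not tested.

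Globins set replicate 4 apart. Hbb-y, an embryonic beta globin, read 8.70, 7.37, 9.07 and 11.44, and Hba-a1, an alpha globin, read 7.96, 6.40, 8.58 and 11.12. The erythroid list as a whole deviated from the mean of the arrays by 1.305 in replicate 4 and by -0.740 to -0.036 elsewhere. Zcchc3 (10.42, 10.57, 8.59 and 6.98), Paip1 and Cap1 were lowest in replicate 4. Pclaf, a PCNA-binding factor of dividing cells, was lowest in replicate 1 (6.64, 10.20, 10.51 and 10.17), and Plk1, a mitotic kinase, was lowest in replicate 3 (9.75, 10.22, 6.87 and 9.60). The means of the mitosis list deviated by -0.306, 0.443, -0.162 and 0.025. Col1a2 was highest in replicate 3, at 9.58, 8.40, 11.08 and 8.98.

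Genes induced within minutes of stimulation also varied. Fos read 5.26, 10.68, 7.43 and 8.77, and Egr1 read 9.39, 11.58, 9.80 and 10.51, with the same order of arrays in both. Of 23 immediate early genes 13 were detected on all arrays (56.5%, near the 51.2% of all genes), at a median percentile of 43.9. Replicate 2 lay 0.248 above their mean. Jun (8.53 ± 0.31) and Dusp1 (8.93 ± 0.13) were more even. Genes induced by heat shock were detected in 5 of 8 cases (73.3), and Hspa1a and Hspa1b on 1 of 4 arrays. No source read for this work gives the handling time of each sort.

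Sex-linked transcripts differed from all-or-none to mixed between arrays. The brightest probe of Xist, the RNA of the inactive X chromosome, read -5.0, 1832.5, 3636.0 and 2247.1 in background-subtracted intensity in replicates 1 to 4. Eif2s3y, on the Y chromosome, read 2482.7, -5.4, 93.0 and 233.1, and Kdm5d, also on the Y, read 639.3, -3.2, 14.6 and 28.1. The brighter Uty probe, also for a gene of the Y, read 74.8, 12.4, 18.3 and 17.1. Replicate 1 thus had detected Y-linked signal without detected Xist, and replicate 2 had Xist with no Y-linked probe detected. Replicates 3 and 4 held both, with all 3 Y-linked genes below their values in replicate 1.

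**Figure D5:**
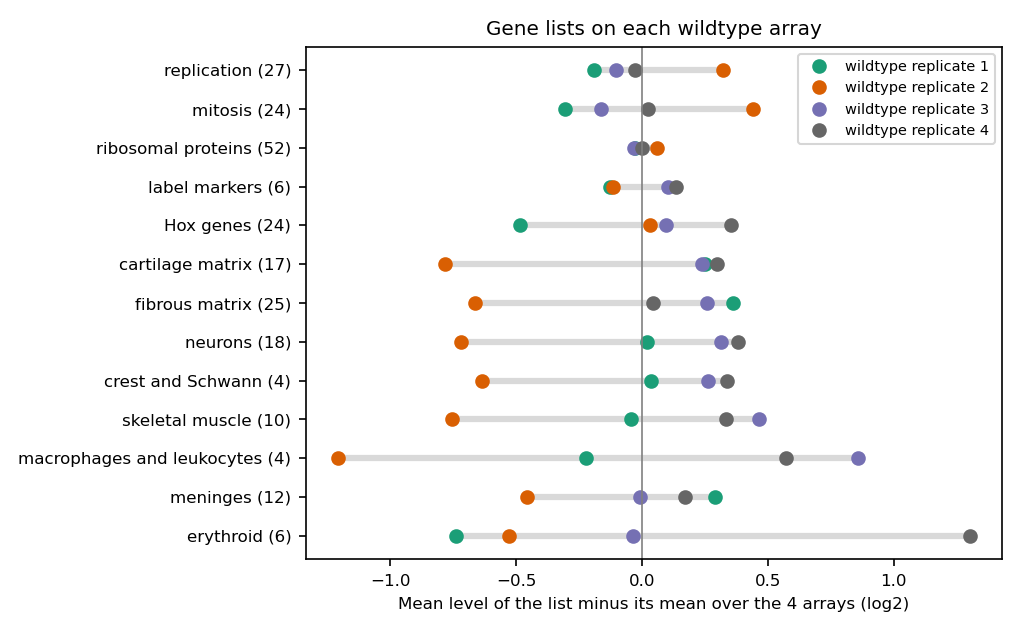
Mean level of the detected genes of each list on each wildtype array, minus the list's mean over the 4 arrays (log2; number of genes in brackets). Replicate 2 (orange) lies at the left for cartilage matrix (-0.785), fibrous matrix, neurons, muscle and macrophages and at the right for replication and mitosis, and replicate 4 (grey) lies at 1.305 for the erythroid list.

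Probes of the same gene often disagreed in level. Among 3457 genes with 2 or more detected probes, the brightest exceeded the next by a median of 1.40, and by over 1 unit in 61.2% of genes. For Col2a1 the gap was 0.54, and for Pax1 0.90, whereas for Sox9 it was 3.14, for Col9a1 6.16 and for Col3a1 8.21. Col9a1 had 4 probes on the array, of which 1 read 4220.1 to 6843.3 and 2 were not detected on all arrays. The part of probe choice in the low or undetected genes given above was not tested.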

How the data were processed

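The authors hybridized labelled RNA of sorted cells to Illumina MouseWG-6 v2.0 BeadChips and prepared background-subtracted data in GenomeStudio. The deposited non-normalized table holds that intensity for each probe and array, and a detection value. Here 1 minus the deposited detection value was used as the detection p-value. A second deposited table holds log2 values, for which the paper's methods describe normalization by the authors in Partek with the median absolute deviation. Whether the deposited values carry that scaling was not established here. These values have a baseline removed for each probe, and the table served only to name probes. By values equal within 0.001 log2 apart from that baseline, 35665 of 45281 probes were paired with 1 identifier. No unpaired probe was detected on any wildtype array. Symbols came from GEO's platform annotation, updated through gene IDs to RefSeq GRCm38.p6. Of the detected probes 14562 had 1 symbol, 6 several and 2418 none. The columns of the other genotype were used for that pairing only.

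Probes with p under 0.05 on all 4 wildtype arrays were quantile normalized on the log2 scale (R 4.3.3, limma 3.58.1), and a gene took its probe of highest mean. No test was made, since no groups were compared. Intensity at a probe is limited by background and by the number of arrays, 4. On simulated levels of 16986 probes with a noise SD of 0.3, the ranking recovered 92 of the first 100. That noise was independent and of equal size for all probes. The simulation held no difference in binding between probes and no groups of genes that shift together on an array, as in replicate 2. It therefore does not measure how reliable the real ranking is. Named were the 30 genes and the 30 transcription factors of highest level, the 20 genes of widest SD in the upper 50% of levels, the label markers and members of gene lists given with the list's counts. Members and lists were chosen with earlier results of these data known. Alternatives were no normalization, median centring, quantile normalization before the filter, normexp (offset 16), other detection filters, the mean of a gene's detected probes and leaving out each array. No protein sequence was used. Tables were joined with Python 3.11.15 and pandas 2.3.3.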

Additional observations from a re-analysis of the deposited data

Results flagged for a closer look

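Among 190 named genes and 52 gene lists, 27 genes and 6 lists had 1 array whose gap to the nearest other array, as a share of the range, was above Dixon's 95% critical value for 4 samples. Chance flags about 1 in 20 groups of 4, and over all detected genes the share was 6.5% (634 genes, in 383 of which replicate 2 was the array apart). Replicate 2 was the array apart in 24 of the 33 cases, replicate 4 in 5, replicate 1 in 3 and replicate 3 in 1. The named genes include 20 chosen for their wide spread, which supply 10 of these cases and are no independent count. Among the 170 others 17 genes were past the value, 11 of them with replicate 2 apart.

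Replicate 2 was the lowest array for the cartilage genes Hapln1 (0.852) and Csgalnact1 (0.866), for the fibrous collagens Col5a1 (0.890) and Col6a1 (0.834), and for Mia (0.878). It was also lowest for the signalling genes Gli2 (0.851), Gli3 (0.855), Twsg1 (0.977), Igfbp5 (0.957), Dlk1 (0.938) and Epha3 (0.928), and for Rbm45 (0.956), Piezo2 (0.882), Rtl3 (0.896), Aqp1 (0.931) and Prss35 (0.929). It was highest for Tead2 (0.910) and Foxf2 (0.839). Of the lists, the mean of cartilage matrix (0.945), chondroitin and sulfation enzymes (0.948), pericytes and smooth muscle (0.846), proteases and inhibitors (0.846) and axon guidance (0.938) was lowest in replicate 2, and that of the respiratory chain (0.861) was highest there.

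Replicate 4 was highest for Sox9 (0.931), Bmpr1b (0.906) and Gm6548 (1) and lowest for Paip1 (0.902) and Cap1 (0.949). Replicate 1 was highest for CYTB (1) and lowest for Pclaf (0.912) and Cdh3 (0.947), and replicate 3 was highest for Igf2 (0.851). The ratios of CYTB and Gm6548 come from 3 arrays on which these genes had equal rank and therefore, after quantile normalization, equal values. The cause of these departures was not tested.

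Outside the ranking, 2418 probes with no listed gene were detected on all 4 arrays. The brightest of them, ILMN_1240829, averaged 15.34 (log2 intensity), above every named gene.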

How the results depend on the processing

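The order of genes changed little with scaling. All 100 genes of highest level remained among the first 100 with no normalization, median centring, quantile normalization before the filter and normexp. They also remained with no detection filter, p under 0.01 and detection on 3 of 4 arrays. Such scaling keeps the order within each array and such filters act on dim probes, so these settings could hardly change the first 100. When 1 array was left out, 96 to 99 remained. With the mean of a gene's detected probes in place of the brightest, 61 of 100 remained, 127 of 190 named genes moved by more than their SD, and the label markers stood at a median percentile of 83.6, against 96.3. Under that choice Col9a1 stood at the 77.78 percentile, Col3a1 at 74.81, Sox5 at 62.58, Fgfr2 at 64.33, Matn4 at 58.54, Bmp4 at 56.52, Vcan at 47.37 and Acta2 at 40.18. Ybx1 stood at 80.19, Gli2 at 67.45, Cenpa at 66.57 and Bmpr2 at 61.25. Over the 190 named genes the change in percentile ran from -46.07 to 10.57. With no detection filter, where all genes are ranked, the label markers stood at 97.8 and cartilage matrix at 62.6, against 36.8. Without replicate 2 the cartilage matrix stood at 47.9 and the median SD at 0.163, and without the others at 34.7 to 39.6 and 0.209 to 0.225. Of 52 list medians, 10 moved by more than their SD without replicate 2. The median SD was 0.344 with no normalization and 0.358 with no detection filter, against 0.217. Detected genes numbered 9149 at p under 0.01 and 10503 with detection on 3 of 4 arrays. No paired analysis was possible because no groups were compared. Signal near background limits the dimmest genes, whose order is the least certain.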

Other observations

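Signal that no list covered was common at the top of the ranking: 43 of the first 100 genes belonged to none of the lists used here. Among these were the gap junction gene Gja1 (14.03 ± 0.18), the iron storage genes Fth1 (14.15 ± 0.21) and Ftl1 (14.05 ± 0.08) and the RNA-binding protein Hnrnpc (14.16 ± 0.13). They are given as values only and were chosen after their levels were seen.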
